A study of Mus musculus with 6 samples.

Results

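A set of 9 interferon-induced genes was followed in splenic B cells of mice with intact or defective Btk: Ifi202b, Rsad2, Mx1, Ifit1, Ifit2, Ifit3, Isg15, Usp18 and Irf7. They were chosen by symbol, with earlier results of these data known. All 9 were represented on the array, by 10 probe sets that carry a single symbol, of 12488 probe sets in all. A further probe set carries several symbols, 1 of them Ifi202b, and names no gene. Expression was measured on 6 Affymetrix MG_U74Av2 arrays, 2 for each of 3 groups of adult mice. The first group was wild type CBA. The second was Xid, which is the strain CBA/N with the R28C substitution in Btk, the kinase that relays B cell receptor signals. The third was Btk KO, a knockout made in mice labelled SW129 and then crossed onto CBA for 9 generations. All groups therefore share a CBA-related background and none was treated. The mutation, the strain CBA/N and any remaining SW129 segments cannot be told apart within a mutant group. The 3 arrays numbered 1 (run 1) came before 3 arrays with new RNA from new mice (run 2), and the labels do not say whether an RNA came from 1 animal or a pool, so p-values measure only the spread between these arrays.

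Type I interferons bind a receptor that activates the kinases Jak1 and Tyk2. The signal reaches a short DNA element, the interferon-stimulated response element (ISRE), in front of the target genes. The products of these genes block viral entry, translation and budding, and some of them feed back on the pathway. B cells and macrophages of the spleen both respond to interferon, so in a bulk sample a change within B cells and a change in the share of another cell type cannot be told apart. Likewise, fewer cells of a type and less RNA per cell give the same reading.

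The promoter sequences are shown because the interferon signal reaches its target genes through the ISRE. The members themselves were grouped by symbol and not by this element. RefSeq windows (build GRCm38.p6, from 250 bases before to 50 after a start site) were found for 7 of the 9 genes, in 8 windows of 300 bases. The ISRE letters GAAA, any 2 bases and GAAA were searched on both strands, so that TTTC, any 2 bases and TTTC count too, and matches were allowed to overlap. They occurred in 4 of the 8 windows, for Rsad2, Isg15, Ifit1 and Ifit3, and in 3.44% of all 32851 windows of that length. Each stretch is written 5' to 3' along the gene, with the matched letters in capitals.
Rsad2 (chr12:26456548-26456587, minus strand): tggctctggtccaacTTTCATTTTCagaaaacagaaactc
Isg15 (chr4:156200860-156200911, minus strand): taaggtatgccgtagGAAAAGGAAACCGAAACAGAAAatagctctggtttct
Ifit1 (chr19:34640770-34640828, plus strand): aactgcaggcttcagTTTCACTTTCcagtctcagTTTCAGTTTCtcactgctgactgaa
Ifit3 (chr19:34583358-34583431, plus strand): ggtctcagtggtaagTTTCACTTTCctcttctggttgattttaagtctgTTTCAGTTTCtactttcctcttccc
The Rsad2 match began 120 bases before the start site. Isg15 had 3 matches that overlap one another, the first 78 bases before the start. Ifit1 had matches beginning 104 and 85 bases before the start, and Ifit3 had matches 156 and 122 bases before it. The windows of Ifi202b, Irf7 and Ifit2 held no match to these letters. That of Ifi202b held 1 match to TTC, any 3 bases and GAA, the letters of the gamma-activated site. This match occurred in 8.3% of all windows and, among the members, also in 1 of the Ifit2 windows. No member window with this match held the ISRE letters, so the motifs did not overlap. The Ifi202b window is printed, in lower case throughout, because Ifi202b varied most among the members.
Ifi202b (chr1:173982795-173983094, minus strand): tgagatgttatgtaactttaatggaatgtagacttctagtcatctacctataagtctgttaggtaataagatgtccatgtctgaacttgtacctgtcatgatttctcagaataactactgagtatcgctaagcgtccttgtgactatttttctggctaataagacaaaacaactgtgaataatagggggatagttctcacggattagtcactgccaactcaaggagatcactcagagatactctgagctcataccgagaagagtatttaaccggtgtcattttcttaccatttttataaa
These matches describe the reference genome. Binding at these letters was not measured here.

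The values are intensities on the scale of the deposited table, on which the median of an array lay between 32.7 and 37.7. Differences are on the log2(intensity + 6) scale with their standard error (SE). They were tested with limma in 1 model of the 3 groups, with Benjamini-Hochberg adjustment over 7453 probe sets at a threshold of 0.05. Where it changes a call, the result with the run as a block is given too. Probe sets whose mean on that log2 scale lay below the value for an intensity of about 19.8 were left out of the test as dim; 8 member probe sets passed and 2, those of Ifit1 and Ifit2, did not. In run 1 the Btk KO array had a Gapdh 3' to 5' ratio of 10.4 against 0.76 to 1.61 on the others. The brighter Btk probe set, which checks the labels, read 276.1 and 173.6 in Btk KO and 643.9 to 874.1 in the other groups, though its place relative to the deleted part is not known here. Of 10 listed B cell markers, 9 were on the array and were tested. Their summed intensity was 22521 and 22397 in CBA, 22381 and 17234 in Xid, and 15758 and 14929 in Btk KO (run 1 and run 2).

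Ifi202b separated the 3 groups. It belongs to the interferon-inducible Ifi200 family, binds DNA without a pyrin domain, and is known as a gene whose expression differs between inbred mouse strains. It read 35.2 and 27.6 in CBA, 1.5 and 10.6 in Xid, and 82.5 and 91.7 in Btk KO (run 1 and run 2). The order was Xid below CBA below Btk KO in both runs, and no 2 groups overlapped. Btk KO exceeded Xid by 3.06 ± 0.43 (SE; 3.56 and 2.56 within the runs). With limma the adjusted p was 0.123 without the run block and 0.046 with it. Ifi202b reached the test only through its Btk KO values, since the mean log2 value of the CBA and Xid arrays lay below the dim limit. Its passing with the block therefore supports nothing beyond the readings. In the comparison of Btk KO with CBA the log2 difference was 1.32 ± 0.43 (limma adjusted p = 0.389, or 0.170 with the run block). Xid differed from CBA by -1.74 ± 0.43 (limma adjusted p = 0.482, or 0.180 with the run block). Both Xid readings lie below the dim limit of 19.8, so the size of differences from Xid depends on the added constant. With a constant of 32 in place of 6, Btk KO against Xid was 1.66 (limma adjusted p = 0.035), and with a constant of 1 it was 4.03 (limma adjusted p = 0.322). Without the Btk KO array of run 1 and with the run block the difference was 2.92 and did not pass (limma adjusted p = 0.199). Among all probe sets tested, the log2 span of Ifi202b over the 6 arrays, 3.70, lay at the 99.5th percentile. The probe set with several symbols, read as no gene, was dim, at 11.3 and 5.4 in CBA, 2.4 and 11.1 in Xid, and 20.3 and 23.1 in Btk KO.

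**Figure D1:**
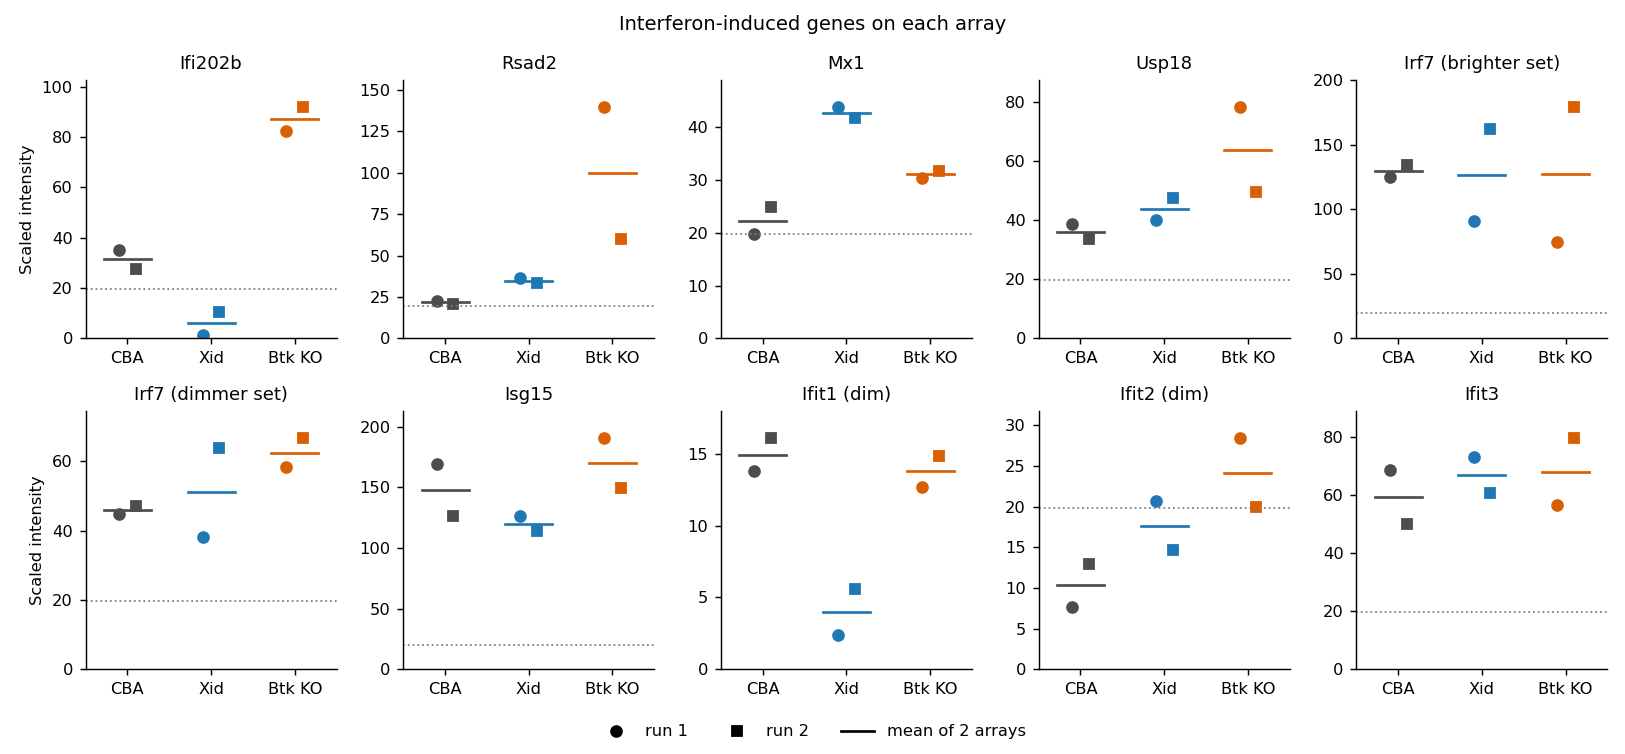
Scaled intensity of the 10 member probe sets on each array, by group, with circles for run 1, squares for run 2 and a bar for the mean of 2 arrays; the dotted line marks the dim limit of 19.8. Ifi202b is at 1.5 and 10.6 in Xid and at 82.5 and 91.7 in Btk KO, with CBA between, and Rsad2 is highest on both Btk KO arrays.

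Ifi202b lies in a cluster of related genes on chromosome 1, and its neighbours were read for comparison. Of the 30 annotated genes within 15 places on either side, 3 had a probe set of a single symbol, Ifi209, Ifi207 and Ifi204. Ifi207, another Ifi200 family member, read 24.4 and 21.9 in CBA, 20.6 and 21.8 in Xid, and 51.1 and 56.2 in Btk KO. Both Btk KO arrays lay above the other 4, and Xid differed from CBA by -0.10. The log2 difference of Btk KO from CBA was 1.03 ± 0.29 (limma adjusted p = 0.305, or 0.141 with the run block), so it did not pass. Ifi209 read 65.7 and 42.8 in CBA and 55.9 and 45.1 in Btk KO, with a mean of 47.8 ± 11.0 (SD, n = 2) in Xid, and its groups overlapped. The brightest Ifi204 probe set read 339.0 and 227.4 in CBA, 417.1 and 223.3 in Xid, and 298.9 and 211.9 in Btk KO. It was higher in run 1 than in run 2 in each group, and its groups overlapped as well. Ifi200 family genes are close in sequence, and the probe sets of Ifi207 and Ifi204 may pick up transcripts of related genes, so single genes of the cluster are uncertain.

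**Figure D2:**
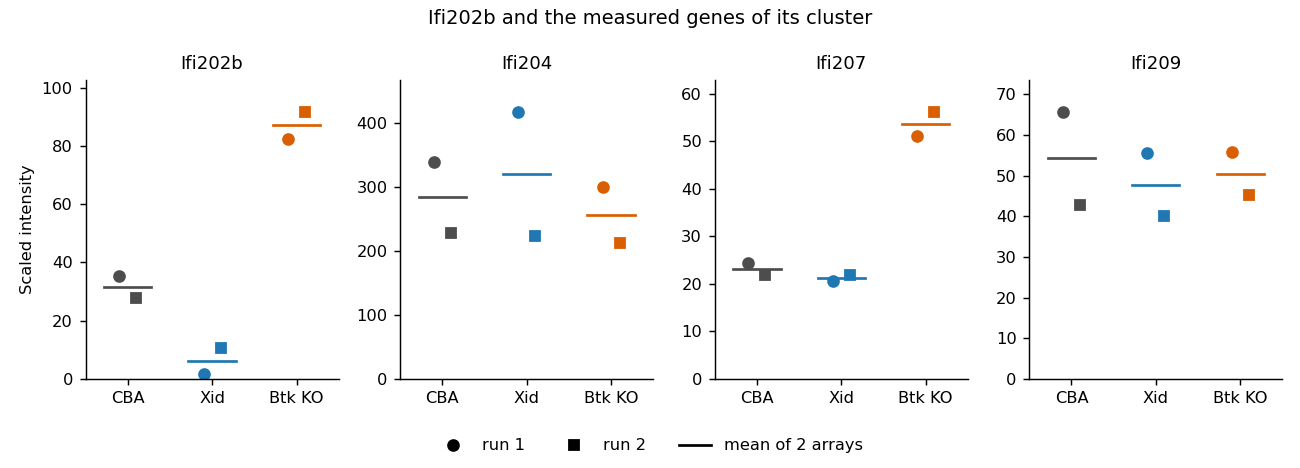
Scaled intensity on each array of Ifi202b and of the tested probe sets of Ifi207, Ifi204 and Ifi209, which lie near it on the chromosome; circles are run 1, squares run 2, bars the mean of 2 arrays. Ifi207 reads 51.1 and 56.2 in Btk KO against 20.6 to 24.4 on the other arrays, while Ifi209 and Ifi204 overlap between groups.

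Rsad2 was the antiviral effector that differed most between Btk KO and CBA. It encodes viperin, a radical SAM enzyme that makes a chain-terminating nucleotide and hinders the budding of several viruses. It read 22.8 and 20.9 in CBA, 36.3 and 33.5 in Xid, and 139.5 and 60.1 in Btk KO. Both Btk KO arrays were above both Xid arrays, and these above both CBA arrays. The log2 difference of Btk KO from CBA was 1.82 ± 0.39, or 2.34 within run 1 and 1.30 within run 2. With limma the adjusted p was 0.171, and 0.040 once the run entered as a block. When the run 1 array of Btk KO was left out, the value with the block was 1.30 (limma adjusted p = 0.236), so the call was lost without that array. In Xid the difference from CBA was 0.55 in each run (SE 0.39; limma adjusted p = 0.999), and Btk KO exceeded Xid by 1.26 ± 0.39 (limma adjusted p = 0.998).

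Summed markers of erythroid cells, macrophages, neutrophils and NK cells were also highest on average in Btk KO. All 7 erythroid markers on the array (of 10 listed) passed the dim limit, and their summed intensity was 5579 and 7602 in CBA, 9066 and 7603 in Xid, and 21849 and 10542 in Btk KO. It was highest on the Btk KO array of run 1, the array on which Rsad2 was highest too. In Btk KO against CBA limma called 0 of these 7, with or without the run block, against 0.174% of all probe sets without the block and 2.23% with it. At an unadjusted p under 0.05 without the block the count was 7 of 7, against 8.83% of all. Macrophage and monocyte markers (13 tested of 16 on the array) summed to 2592 and 3863 in CBA, 5898 and 8891 in Xid, and 9463 and 12639 in Btk KO. In Btk KO against CBA 3 of these 13 rose by limma (0.174% of all probe sets were called), and 9 with the run block (2.23% of all). Neutrophil markers (7 tested of 12) summed to 182.3 and 232.8 in CBA, 270.7 and 247.7 in Xid, and 862.8 and 1576 in Btk KO, and 2 of the 7, Camp and S100a9, rose by limma, with S100a8 and Ngp added by the run block. Ngp read 6.3 to 11.6 in CBA and Xid and reached the test only through its Btk KO values, 40.8 and 258.3, so its call supports nothing. NK and cytotoxic markers (9 tested of 9 on the array) summed to 547.2 and 1108 in CBA, 851.8 and 1571 in Xid, and 1377 and 3187 in Btk KO. Without the block limma called 0 of them in Btk KO against CBA (7 at an unadjusted p under 0.05), and with it Gzma, Klrd1, Klra3, Eomes and Ccl5 rose. The macrophage and NK sums were higher in run 2 than in run 1 in each group, and the neutrophil sum in CBA and Btk KO. This order is thus not particular to Btk KO. Among the neutrophil markers left out as dim, Ltf read 31.8 and 80.4 in Btk KO and 5.5 to 10.9 in CBA and Xid. Cxcr2 read 37.4 and 10.7 in Btk KO and 2.8 to 9.2 in the other groups. Prtn3, Mmp8 and Mmp9 overlapped between Btk KO and the other groups. These dim genes were named after their values were seen. The part of erythroid cells, macrophages, neutrophils and NK cells in the Rsad2 reading was not tested. The genes whose profile over the 6 arrays lay nearest to that of Rsad2 were Bpgm, an enzyme of red cell metabolism, Pip4k2c, a lipid kinase gene, and Hbb-b2, a globin. Their root mean square distances from it, after each profile was centred, were 0.14, 0.17 and 0.20 on the log2 scale. The nearest member, Usp18, lay at 0.50. The former were sought among all tested probe sets with a single symbol and Usp18 among the members alone. The nearest of all cannot lie farther than the nearest member, so the distances cannot be compared. Bpgm read 89.5 and 102.7 in CBA, 118.2 and 134.5 in Xid, and 486.3 and 240.6 in Btk KO.

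**Figure D3:**
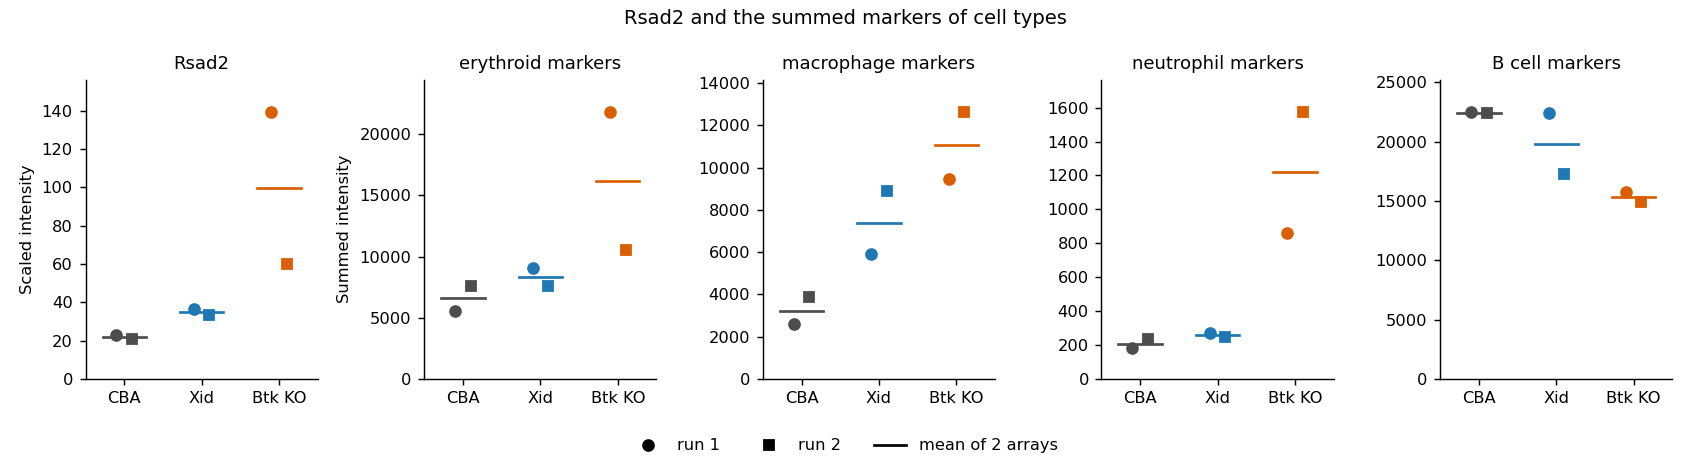
Scaled intensity of Rsad2 (left) and the summed intensity of the tested markers of erythroid cells, macrophages, neutrophils and B cells on each array; circles are run 1, squares run 2, bars the mean of 2 arrays. Rsad2 and the erythroid sum are both highest on the Btk KO array of run 1, at 139.5 and 21849. Macrophage and neutrophil sums are highest on that of run 2, and the macrophage sum is higher in run 2 in each group.

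Mx1 was the member with its highest readings in Xid. It encodes a dynamin-like GTPase that blocks influenza and related viruses, and many laboratory strains carry a defective allele of it. It read 19.8 and 24.9 in CBA, 43.8 and 41.8 in Xid, and 30.4 and 31.8 in Btk KO. The 3 groups did not overlap, and the order CBA below Btk KO below Xid held in both runs. The log2 difference of Xid from CBA was 0.79 ± 0.29 and did not pass (limma adjusted p = 0.973, or 0.506 with the run block). Btk KO differed from CBA by 0.39 ± 0.29 and from Xid by -0.40 ± 0.29.

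The 3 Ifit genes encode tetratricopeptide proteins that bind foreign RNA and hold back its translation. Of the 3, Ifit3 alone was bright enough to be tested. Ifit3 read 68.5 and 49.9 in CBA, 72.8 and 60.7 in Xid, and 56.3 and 79.4 in Btk KO, with overlap between all groups. Its log2 differences from CBA were 0.17 ± 0.28 in Xid and 0.18 ± 0.28 in Btk KO. Ifit1 read 13.8 and 16.1 in CBA, 2.4 and 5.6 in Xid, and 12.7 and 14.9 in Btk KO, so it was below the dim limit on every array, and lowest on the Xid arrays. Ifit2 read 7.7 and 12.9 in CBA, 20.7 and 14.6 in Xid, and 28.4 and 19.9 in Btk KO. No fold is given for these dim probe sets, and they were not tested.

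Isg15 is a ubiquitin-like protein that is joined to other proteins after interferon, and Usp18 is the protease that removes it and also dampens the type I receptor.  Isg15 read 169.0 and 126.7 in CBA, 126.1 and 114.4 in Xid, and 190.6 and 149.5 in Btk KO. Both Xid arrays lay below all others, with 126.1 against 126.7 as the nearest pair, and CBA and Btk KO overlapped. Its log2 difference was -0.27 ± 0.24 in Xid and 0.20 ± 0.24 in Btk KO against CBA. Usp18 read 38.6 and 33.5 in CBA, 40.2 and 47.5 in Xid, and 78.2 and 49.7 in Btk KO, with no overlap between groups. The difference of Btk KO from CBA was 0.71 ± 0.30 (limma adjusted p = 0.563, or 0.298 with the run block), at 0.92 and 0.50 within the runs. As for Rsad2, its highest reading was on the Btk KO array of run 1. The nearest profiles to Usp18 were those of Itsn1, a scaffold protein of endocytosis, Abcg2, a membrane transporter, and Map7d1, at distances of 0.05, 0.08 and 0.08. The nearest member, sought among far fewer probe sets, was Isg15, at 0.28.

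Irf7 is the transcription factor that amplifies the production of type I interferon and is itself induced by it. Its brighter probe set read 125.2 and 134.5 in CBA, 91.4 and 162.0 in Xid, and 75.1 and 179.1 in Btk KO. The CBA arrays lay between the arrays of each mutant line, with run 1 low and run 2 high in both. The group means were 129.8 ± 6.58, 126.7 ± 49.9 and 127.1 ± 73.5 (SD, n = 2), so the spread between the runs exceeded any difference between groups. Within run 1 Btk KO differed from CBA by -0.69, and within run 2 by 0.40. The dimmer Irf7 probe set read 44.8 and 47.2 in CBA, 38.2 and 63.9 in Xid, and 58.3 and 66.7 in Btk KO, and differed from CBA in Btk KO by 0.40 ± 0.30. The nearest profiles to the brighter set were Tnfaip1 at 0.08, and Gtf2i and Slc25a17 at 0.09. Among the far fewer members the nearest was the other Irf7 probe set, at 0.37. For Ifi202b the nearest of all tested profiles were Top2a at 0.55, Aurka at 0.73 and Adm at 0.74. Top2a, the topoisomerase of dividing cells, read 36.2 and 26.3 in CBA, 3.8 and 18.5 in Xid, and 47.7 and 44.0 in Btk KO.

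The 8 tested probe sets were then counted against the background of all 7453. Without the run block limma called none in any comparison (0 of 8), while over all probe sets 0.0671% were called in Xid against CBA, 0.174% in Btk KO against CBA, 0.0403% in Btk KO against Xid and 0.148% when the mutant lines were averaged and set against CBA. At an unadjusted p under 0.05 the members numbered 2, 2, 2 and 1 in that order, against 4.43%, 8.83%, 3.61% and 7.37% of all probe sets. With the run block limma called Rsad2 in Btk KO against CBA, where 2.23% of all were called, and Ifi202b in Btk KO against Xid, where 0.188% were. Ifi202b reached the test only through its Btk KO values, so neither its call nor its unadjusted p adds support. Limma with the block called 0 members in Xid against CBA, where 0.483% of all were called, and 0 for both mutant lines, where 1.93% were. With the block and without the Btk KO array of run 1 it called 0 in each comparison, against backgrounds of 1.02%, 1.22%, 0.161% and 2.21%.

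Both Btk KO arrays were above both CBA arrays for 5 of the 8 (Ifi202b, Rsad2, Mx1, Usp18 and the dimmer Irf7 set), against 20% of all probe sets, and below for 0, against 16%. Both Xid arrays were above both CBA arrays for Rsad2, Mx1 and Usp18, against 17% of all, and below for Ifi202b and Isg15, against 14.4%. For Rsad2, Mx1 and Usp18 all 4 mutant arrays were above both CBA arrays, against 9.82% of all, and for 0 were they all below, against 7.31%. Both Btk KO arrays were above both Xid arrays for Ifi202b, Rsad2, Usp18 and Isg15, against 14.2% of all, and below for Mx1, against 12.3%. The median log2 difference of the 8 was 0.13 in Xid and 0.39 in Btk KO against CBA, beside 0.01 over all probe sets in each. Ifi202b was among the 8 only through its Btk KO values, so it adds no support to the Btk KO counts or median. The comparisons with CBA share the CBA arrays, and the members were chosen with earlier results of these data known. The counts and medians therefore describe the members and do not test them as a set. With the mutant lines averaged, Rsad2 differed from CBA by 1.19 ± 0.34 (limma adjusted p = 0.366), Mx1 by 0.59 ± 0.25 and Usp18 by 0.48 ± 0.26, whereas Ifi202b differed by -0.21 ± 0.37 because its lines lay on opposite sides of CBA.

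**Figure D4:**
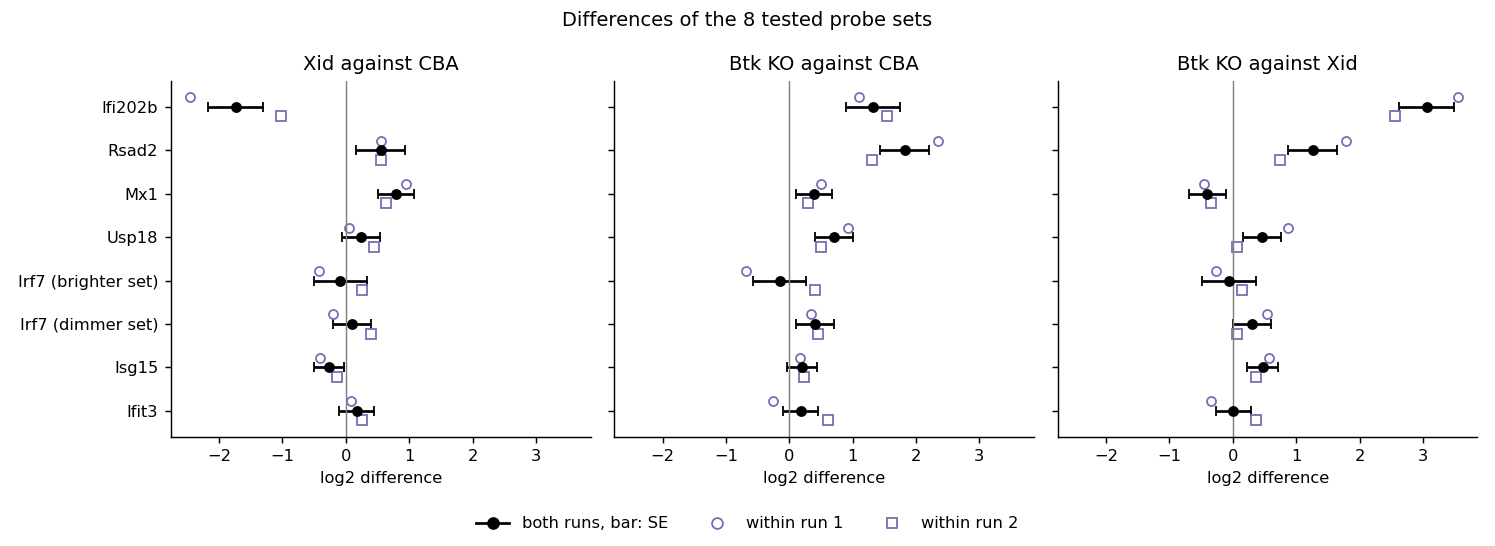
Log2 differences of the 8 tested member probe sets in 3 comparisons, as the value over both runs with its standard error (black) and the values within run 1 (open circle) and run 2 (open square). Ifi202b is at -1.74 in Xid and 1.32 in Btk KO against CBA, Rsad2 is at 1.82 in Btk KO, and the brighter Irf7 set changes sign between the runs.

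The other genes of the pathway were read from lists, starting with ligands and receptors. Of 9 interferon genes on the array, 3 passed the dim limit, and 0 were called in any comparison with limma, with or without the run block. Over all probe sets the share called lay between 0.0403% and 0.174% without the block and between 0.188% and 2.23% with it. At such shares a count of 0 in a short list says little. Ifnb1 was dim, at 1.1 to 15.2, as was Ifng, at 0.8 to 18.5. All 10 receptor and JAK-STAT genes on the array were tested and 0 were called in either fit, beside the same shares. Their median log2 difference was 0.01 in Xid and -0.10 in Btk KO against CBA. Ifnar1, a chain of the type I receptor, differed by -0.10 in Btk KO and Ifngr1, of the interferon-gamma receptor, by 0.34. Socs3, an inhibitor of cytokine signalling, had the largest difference in Btk KO, 1.26 (limma adjusted p = 0.468, or 0.051 with the run block).

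Of the other interferon regulatory factors 5 were tested and 0 were called in either limma fit. Over all probe sets at most 0.174% were called without the block and at most 2.23% with it. Irf8, a factor of B cells and macrophages, read 1096.2 and 1056.4 in CBA, 1588.4 and 1444.4 in Xid, and 2144.5 and 1499.9 in Btk KO. Irf1 read 479.3 and 403.3 in CBA, 534.3 and 523.3 in Xid, and 744.4 and 645.2 in Btk KO. In both genes all mutant arrays lay above both CBA arrays, as did those of 9.82% of all probe sets. With the run block the differences of Btk KO from CBA, 0.73 and 0.65, had limma adjusted p = 0.094 and 0.091. Among the nucleic acid sensors and adaptors 5 were tested and 0 were called in either fit, beside the same shares. Ifih1, the cytosolic sensor MDA5, differed by 1.48 in Xid (limma adjusted p = 0.472, or 0.198 with the run block) and by 1.63 in Btk KO (0.171, or 0.071 with it). It read 7.4 and 13.6 in CBA, under the dim limit, and 32.2 to 47.3 on the mutant arrays.

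The list of other type I interferon-induced genes had a median near that of all probe sets in Xid. Of 22 on the array 20 were tested, with a median of 0.01 in Xid and 0.15 in Btk KO against CBA. In Btk KO 14 had a positive and 6 a negative difference. The share of positive differences over all probe sets was not counted, and their median was 0.01. Without the run block limma called 0 in each comparison, against at most 0.174% of all probe sets. With it, limma called Lgals3bp, a secreted glycoprotein, and Ifitm3, a membrane protein that blocks viral entry, in Btk KO, at 1.42 and 1.11 (limma adjusted p = 0.037 for each), where 2.23% of all probe sets were called. Both are also expressed by macrophages, whose markers were higher in the same arrays, and the part of these cells was not tested. Without the Btk KO array of run 1, Lgals3bp passed with the block (limma adjusted p = 0.030) and Ifitm3 did not (0.083). With the lines averaged and the block, limma called these genes again (adjusted p = 0.041 and 0.040), against 1.93% of all. In Btk KO, Mx2, the paralog of Mx1, differed from CBA by 0.52, the exonuclease gene Isg20 by 0.47 and Ifi27l2a by -0.16, and none of these passed. The RNA-editing enzyme gene Adar, chosen after its values were seen, had the most negative difference of the list, -1.12 (limma adjusted p = 0.705, or 0.091 with the run block), and -0.71 without the Btk KO array of run 1.

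Genes induced mainly by interferon-gamma included 13 tested of 17 on the array, and limma called 0 of them in any comparison in either fit. Over all probe sets at most 0.174% were called without the block and at most 2.23% with it. The median of the 13 was 0.08 in Xid and 0.27 in Btk KO against CBA, at 0.24 and 0.33 within the runs for Btk KO. In Btk KO 12 of the 13 had a positive difference. The share of positive differences over all probe sets was not counted, and their median was 0.01. For 8 of the 13 both Btk KO arrays lay above both CBA arrays, as for 20% of all probe sets. Gbp7, a guanylate-binding GTPase, differed by 1.20 (limma adjusted p = 0.273, or 0.084 with the run block), Irgm2 by 0.51 and Igtp by 0.48. Ciita, the master factor of MHC class II genes, differed by -0.97 (limma adjusted p = 0.654, or 0.191 with the run block), and by -0.34 without the Btk KO array of run 1. In Btk KO against CBA, the genes with an unadjusted limma p under 0.05 without the run block were 0 of 3 ligands, 1 of 10 receptor and JAK-STAT genes, 2 of 5 other interferon regulatory factors, 1 of 5 sensors and adaptors, 1 of 20 other type I genes and 2 of 13 interferon-gamma genes, against 8.83% of all probe sets.

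**Figure D5:**
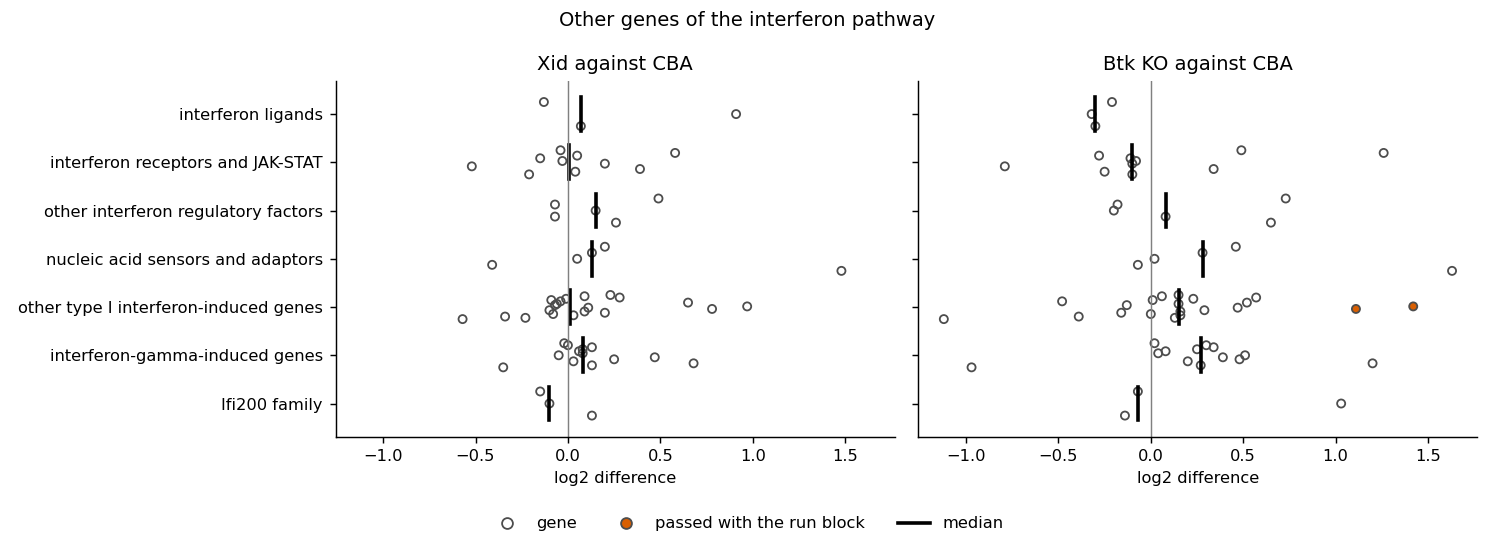
Log2 differences of the tested genes of 7 interferon pathway lists in Xid and in Btk KO against CBA; each circle is a gene, black bars are list medians, and filled circles passed limma with the run block. Lgals3bp at 1.42 and Ifitm3 at 1.11, both in Btk KO, are the filled points, and the medians lie between -0.30 and 0.28.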

How the data were processed

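Total RNA from whole splenic B cells was hybridised to 6 arrays. Each deposited value is 1 linear intensity per probe set and array, scaled by the authors so that the 2% trimmed mean is 100.06 on each array. The summarising software is not given in the sources used here, and no detection calls were used. Of 12488 probe sets, 66 are controls, 10833 carry 1 gene symbol, 396 several and 1193 none. Symbols were updated by gene number, which matched 10817, in a RefSeq table of GRCm38.p6. Intensities were taken to log2 after adding 6, the 20th percentile of all values. Probe sets with a mean log2 value below the 40th percentile were left out as dim (4969), which kept 7453. The 3 group means were fitted with limma 3.58.1 in R 4.3.3 (lmFit, and eBayes with an intensity trend), with two-sided tests and 3 residual degrees of freedom that all groups share. The fit was tested on simulated data. Figures used matplotlib 3.10.9.

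The replicate number stands for the run, since the series' design text sets the first 3 chips apart from 3 later ones, and per the file headers each run has its own chip lot. In run 1 the Btk KO array was hybridised on another day than CBA and Xid. Deviations from the group means correlated within a run at 0.31, 0.37 and 0.44 for the 3 pairs of groups over 7453 probe sets. With 2 arrays a group, precision is limited by their number.

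Named were all member probe sets with a single symbol, up to 4 genes of each list with the smallest p, the measured neighbours of Ifi202b, the 3 nearest profiles of each tested member probe set that spans at least 1 on the log2 scale, and Btk. Beyond that, Adar, the dim genes Ifnb1, Ifng and Iigp1, the dim neutrophil markers, and the called markers were chosen after their values were seen. Each listed gene entered by its brightest tested probe set. The members and lists were chosen with earlier results of these data known, and no list was tested as a set. The alternatives were the run block, quantile normalization, median centring, constants of 1 and 32, no filter and a filter at the 60th percentile, no intensity trend, only the groups compared, and each array left out. The block without the Btk KO array of run 1 was chosen after seeing the data.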

Additional observations from a re-analysis of the deposited data

Results flagged for a closer look

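Ifi202b differed between the mutant lines in opposite directions from CBA. Both Xid arrays, at 1.5 and 10.6, lay below both CBA arrays, and both Btk KO arrays, at 82.5 and 91.7, lay above them. The difference between the lines, Btk KO minus Xid, was 3.06 on the log2 scale, and its own limma adjusted p was 0.123 without the run block and 0.046 with it. Ifi202b reached the test only through its Btk KO values, so its passing with the block supports nothing beyond these readings. No group has enough arrays for a test of single outlying arrays.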

How the results depend on the processing

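Over 32 differences of members (8 probe sets, 4 comparisons) the alternatives gave 484 values. Of these 457 kept their direction and side of the threshold, 4 came to pass it and 23 changed sign, the last among 12 differences of at most 0.30 in size. The 4 were Ifi202b in Btk KO against Xid with the run block and with a constant of 32, and Rsad2 in Btk KO against CBA with the run block and without Btk KO of run 2 (2.39, limma adjusted p = 0.028); the block changed no other member's call. Ifi202b for both mutant lines was 0.08 with a constant of 32, and Ifit3 in Btk KO against Xid was -0.03 with quantile normalization and with median centring. With the run as a block and the run 1 array of Btk KO left out, the brighter Irf7 set was 0.23 in Btk KO against CBA, 0.31 against Xid and 0.07 for both lines. With single arrays left out it ranged from -0.48 to 0.31 in Xid, -0.74 to 0.45 in Btk KO, -0.66 to 0.53 between the lines and -0.41 to 0.18 for both lines. The dimmer set ranged from -0.23 to 0.43 in Xid and -0.03 to 0.63 between the lines. Ifit3 ranged from -0.04 to 0.38 in Xid, -0.05 to 0.40 in Btk KO, -0.22 to 0.24 between the lines and -0.03 to 0.38 for both lines. For both lines Isg15 ranged from -0.24 to 0.16 and Ifi202b from -0.49 to 0.08.

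Calls over all probe sets moved far more. In Xid limma called 5, and 36 with the replicate block, 3 and 8 with constants of 1 and 32, 9 with only the groups compared, 0 to 9 with single arrays left out, and 76 with the block without Btk KO of run 1. In Btk KO it called 13, and 166 with the block, 8 with quantile normalization, median centring or no filter, 24 with a constant of 32, 29 with the stricter filter, 0 with no trend or only the groups compared, 0 to 145 with single arrays left out, and 91 with the block without Btk KO of run 1. Between the lines it called 3, and 14 with the block, 8 with a constant of 32, 0 with only the groups compared, 0 to 29 with single arrays left out, and 12 with the block without Btk KO of run 1. For both lines it called 11, and 144 with the block, 7 with median centring, 0 with no trend, 0 to 39 with single arrays left out, and 165 with the block without Btk KO of run 1. The cause was not tested. Median centring moved the median of all probe sets in Btk KO against CBA from 0.01 to -0.103. Readings below about 19.8 limit Ifi202b in Xid, Ifit1 and Ifit2.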

Other observations

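Iigp1, a GTPase of the interferon-gamma response that was left out of the test as dim, was named after its values were seen. One of its probe sets read 2.4 and 3.6 in CBA, 16.6 and 20.5 in Xid, and 39.5 and 49.2 in Btk KO, so that the groups did not overlap. The other read 5.0 and 13.9 in CBA, 5.5 and 33.7 in Xid, and 40.2 and 25.2 in Btk KO, where CBA and Xid overlapped.

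Dendritic cell markers, of which 6 were tested of 7 on the array, summed to 394.9 and 696.5 in CBA, 767.0 and 1013 in Xid, and 789.1 and 1037 in Btk KO. Of these, Klk1, a kallikrein gene whose probe set is not specific by its name, differed from CBA by 1.89 in Xid. It passed with the run block (limma adjusted p = 0.019), where 0.483% of all probe sets were called, and not without it (limma adjusted p = 0.356). T cell markers, of which 4 of 9 were tested, summed to 568.8 and 743.9 in CBA, 636.8 and 579.9 in Xid, and 582.5 and 552.4 in Btk KO.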
